A study of Mus musculus with 6 samples.

Results

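The genes that encode the proteins of the cytosolic ribosome were followed as a group in single mouse macrophages. They were chosen by name, as the rows of the count matrix named Rpl or Rps with a number, an optional letter and a further optional number, together with Rplp0, Rplp1, Rplp2 and Rpsa. Rps6k kinases and rows marked as pseudogenes (-ps) were left out, and no measured value entered the choice. The rule gave 85 of the 18429 genes in the matrix, 50 of the large and 35 of the small ribosomal subunit. All 85 were found in a mouse gene table, where they lie on 19 chromosomes.

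A ribosome is built from a small subunit, which reads the mRNA, and a large subunit, which joins the amino acids. Most ribosomal proteins are normally present in a single copy per ribosome. The mRNAs of most ribosomal proteins begin with a cytosine followed by a run of pyrimidines, the terminal oligopyrimidine (TOP) tract. Through it their translation follows the mTOR kinase, with Larp1 as a repressor that binds the tract. Macrophages that sense LPS, the lipopolysaccharide of Gram-negative bacteria, switch on cytokine and interferon-response genes.

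The cells were macrophages grown from mouse bone marrow in medium conditioned by L929 cells. All mice carried Rosa26-ERt2Cre on both alleles (creERT2/creERT2), so the wild-type cells (Rad21 WT/WT) bore the same Cre as the Rad21-/- cells, which started as Rad21 lox/lox and lost the floxed alleles in culture. Both genotypes received 200 nM 4-hydroxy-tamoxifen during culture and were used on day 7, untreated or after 2 h or 8 h of LPS at 10 ng/ml. Rad21 encodes a subunit of cohesin, the ring complex that folds chromatin into loops. The mice were of a mixed C57BL/6 and 129 background, of either sex and a range of ages, and the Cre is driven from a locus active in nearly all cells. Each of the 6 combinations of genotype and time was 1 sample, so no test between samples was possible, no p-value is given, and differences are set beside the spread over library pools and the exact counting intervals.

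Each sample held 186 to 270 cells and between 1417409 and 2195921 UMIs (unique molecular identifiers, 1 per counted molecule), with median depths of 5577 to 7056 UMIs per cell. 17 wells held more than 25000 UMIs each. Of these, 5 lay in the wild-type 2 h sample and held 45.5% of its UMIs, so values were averaged over cells with equal weight. The cells came from 24 library pools. A pool held a single time point but, in 23 of 24, both genotypes, so that the effect of LPS and the effect of the pool cannot be told apart, while genotypes could be compared inside a pool. No pool and well combination occurred in more than 1 sample. A UMI of Rad21 was found in 25.9% of wild-type untreated cells (95% exact binomial interval 20.5 to 32.0) and in 2.96% of Rad21-/- untreated cells (1.29 to 5.75). All 9 listed macrophage markers were detected in every sample. Of the 21 listed markers of other blood cells 5 were in the matrix, and each of those lists summed to between 0 and 32.4 CPM (UMI counts scaled to 1000000 per cell) against 6675 to 11113 CPM for the macrophage list.

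Where the mRNAs start is shown first for members that later results turn on, as 15 bases before and 15 bases from a start listed by RefSeq (GRCm38.p6), written 5′ to 3′ on the strand of the gene with the longest run of C and T in capitals. The first 4 are members that differed with LPS or genotype as many others did or more so, followed by members that went the other way or stood apart, and by Rps27 as the partner of Rps27l.
Rpl13a: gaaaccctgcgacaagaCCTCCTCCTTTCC
Rpl14: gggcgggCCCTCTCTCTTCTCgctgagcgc
Rpl12: ggcggagcaggatccgTCTTTTCggctttc
Rpl35: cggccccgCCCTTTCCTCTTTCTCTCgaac
Rpl24: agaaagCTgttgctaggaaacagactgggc
Rps27: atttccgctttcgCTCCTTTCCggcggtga
Rps27l: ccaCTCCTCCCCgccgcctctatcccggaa
Rpl39: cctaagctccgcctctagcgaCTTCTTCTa

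These windows lie at chr7:45128731-45128760 (minus strand) for Rpl13a, chr9:120571502-120571531 (plus) for Rpl14, chr2:32961697-32961726 (plus) for Rpl12, chr2:39005117-39005146 (minus) for Rpl35, chr16:55966260-55966289 (plus) for Rpl24, chr3:90213634-90213663 (minus) for Rps27, chr9:66946071-66946100 (plus) for Rps27l, which has 2 listed starts, and chrX:37085208-37085237 (minus) for Rpl39. The window of Rps27l lies inside the gene (chr9:66944624-66949522), and its other listed start is not shown. The run was 18 bases long in Rpl35, 14 in Rpl14 and 13 in Rpl13a, and 2 bases in Rpl24. Of the 85 members, 62 had an entry, with 73 starts in all. A C at the listed start followed by at least 4 pyrimidines, read on the gene's strand only, occurred at 17.8% of the 73 member starts and at 2.51% of the 32851 starts of all genes. Allowing this tract to begin anywhere from 15 bases before to 10 bases after the listed start gave 58.9% against 35.5%. A run of 8 or more pyrimidines overlapping the window was present at 43.8% of member starts against 17.6% of all starts. A match of letters is a description, and listed starts can lie some bases from the start in use.

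The members spanned 3 orders of magnitude in level. Levels are means of this CPM over the cells of a sample, and 3′ counting gives 1 UMI per molecule whatever the transcript length. The mean over the 6 samples ran from 2.04 CPM for Rpl39l to 2241 CPM for Rplp1, with a median of 325 CPM. The highest were Rplp1, a protein of the stalk that recruits translation factors, Rpl41, a very short peptide of the large subunit, Rps9, Rpl13a and Rpl23. The 10 highest members held 35.1% of the members' summed level and the 20 highest 58.1%. At the lower end stood Rps27, Rps3a2, Rps4l, Rpl10l and Rpl39l. Of these, Rpl10l and Rpl39l are paralogs best known from testis. Rps27 encodes a protein of the small subunit, and its row had 267 UMIs in all cells together.

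**Figure D1:**
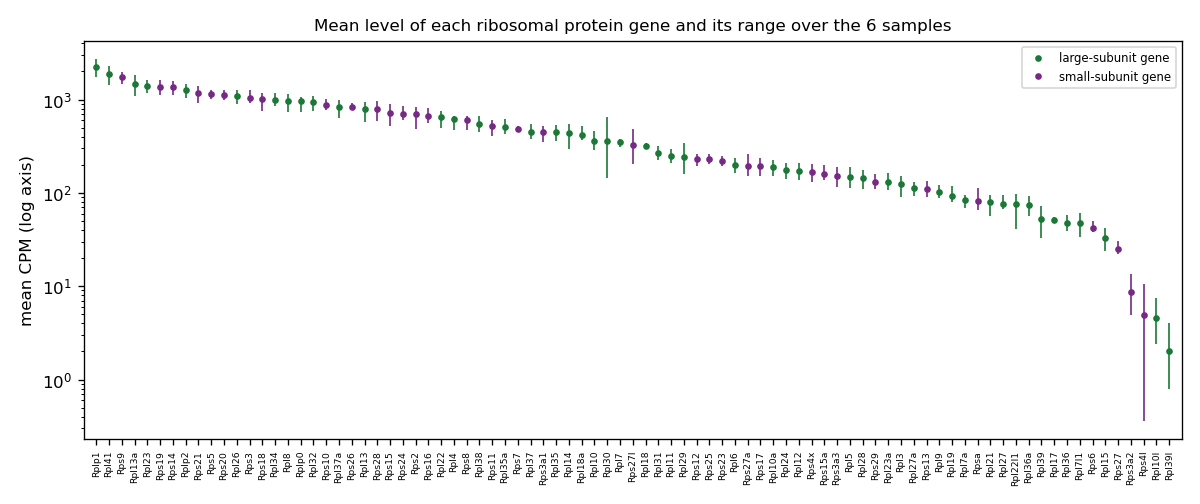
Mean level of each of the 85 ribosomal protein genes in CPM on a log axis, ordered from Rplp1 (2241 CPM) to Rpl39l (2.04 CPM); points are means over the 6 samples, lines run from the lowest to the highest sample, and colours mark the subunit. Most lines are short, and the lines of Rpl30 and Rps4l are long.

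A low row need not be a scarce mRNA, because the authors counted reads that mapped to a single place and ribosomal protein genes have many near-identical processed copies. The matrix held 222 rows of ribosomal protein pseudogenes. Of the 85 members, 57 had at least 1 such row, and for 23 of them the pseudogene rows together held more UMIs than the gene itself. Rps13, a small-subunit protein, had 1487 UMIs on its own row and 9549 on 5 pseudogene rows. Rpl31 had 3000 on its own row and 11892 on 22 pseudogene rows. Rps3a2 and Rps3a3 are near copies of Rps3a1 under gene names of their own, so how reads divide between these rows is uncertain, and the order of the members by level is the order of their uniquely assigned UMIs.

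Ribosomal protein transcripts made up 4.43% of the UMIs of a cell in wild-type untreated cells, 4.09% after 2 h of LPS and 3.58% after 8 h (means over 239, 186 and 257 cells). The means for Rad21-/- were 4.81%, 4.66% and 4.14% (270, 186 and 224 cells). The share was thus lower at each later time in both genotypes, and higher in Rad21-/- than in wild-type cells at each time. The lowest, median and highest cell were at 1.52%, 4.32% and 7.46% in wild-type untreated cells and at 1.05%, 3.50% and 9.63% at 8 h. Rad21-/- cells were at 1.01%, 4.74% and 9.64% untreated and at 0.736%, 4.07% and 7.61% at 8 h. The distributions of single cells overlapped in every pair of samples. Between pools of at least 10 cells, means ranged from 3.90% to 5.14% in the 8 wild-type untreated pools and from 3.26% to 3.90% in the 8 wild-type 8 h pools, the highest of the latter being at the level of the lowest of the former. The 8 untreated Rad21-/- pools lay between 4.18% and 5.70% and the 6 at 8 h between 3.50% and 4.73%, which overlap.

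**Figure D2:**
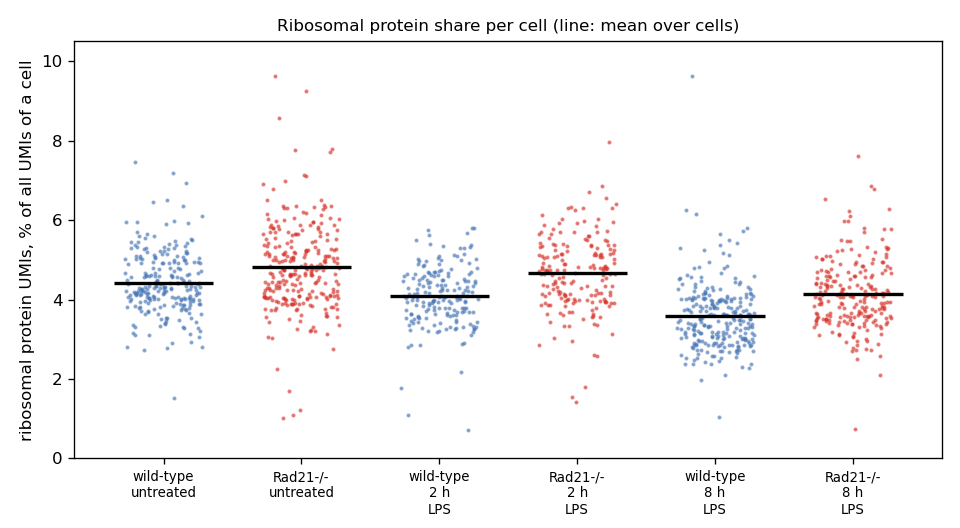
Ribosomal protein UMIs as a percent of all UMIs of a cell (vertical axis) in the 6 samples, 1 point per cell, wild-type in blue and Rad21-/- in red; the black lines are means over cells. The means run from 3.58% in wild-type 8 h cells to 4.81% in Rad21-/- untreated cells, and all samples overlap.

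The share depends on what else the cell transcribed. Of the LPS-inducible genes listed by the study 1 is a member, Rps20, whose levels here were 1052, 1046 and 984 CPM in wild-type and 1262, 1278 and 1091 CPM in Rad21-/- cells at 0, 2 and 8 h. All inducible genes together took 2.18%, 8.92% and 15.1% of wild-type UMIs at 0, 2 and 8 h, and 1.35%, 5.14% and 7.63% of Rad21-/- UMIs. Measured against the UMIs outside these genes, the members' share was 4.52%, 4.49% and 4.22% in wild-type cells and 4.87%, 4.91% and 4.48% in Rad21-/- cells. On this scale the 8 h log2 ratio was -0.10 in wild-type cells, in place of -0.30 against all UMIs, and -0.12 in Rad21-/- cells in place of -0.22. Both samples at 2 h lay within 0.011 of untreated on the log2 scale. Rad21-/- cells remained higher, by a log2 ratio of 0.11 untreated, 0.13 at 2 h and 0.088 at 8 h, in place of 0.12, 0.19 and 0.21. A smaller share and fewer ribosomal protein molecules per cell cannot be told apart here, where no spike-in counts were analysed.

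Inside library pools the genotypes could be set side by side. Of the 18 pools with at least 10 cells of each genotype, Rad21-/- cells had the higher mean share in 16, and in 14 when the inducible genes were left out of the total. The log2 ratio of Rad21-/- to wild-type had a median of 0.11 over 8 untreated pools (range -0.091 to 0.25), 0.15 over 4 pools at 2 h (0.13 to 0.32) and 0.25 over 6 pools at 8 h (0.056 to 0.50). The exceptions were 2 untreated pools, with 4.97% in wild-type and 4.78% in Rad21-/- cells in one and 5.14% and 4.83% in the other. The labels do not say whether pools come from separate cultures or animals, so this agreement does not stand for separate animals.

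**Figure D3:**
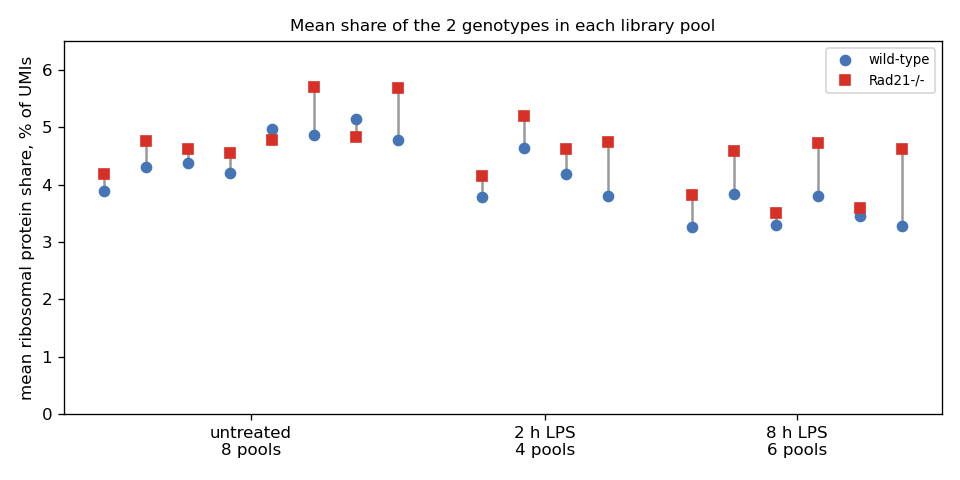
Mean ribosomal protein share (percent of UMIs, vertical axis) of wild-type cells (blue circles) and Rad21-/- cells (red squares) in each of the 18 library pools with at least 10 cells of each genotype, joined by a line within a pool. Red lies above blue in 16 of 18 pools, and the 2 exceptions are untreated pools.

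Single members were compared where the samples of a comparison together held at least 500 UMIs of the gene, a minimum that a member can pass through its higher sample alone. A log2 ratio of at least 0.32 in size, up or down, counts as past the fold, and the share of all genes that meet the same rule is given as the background. In wild-type cells at 2 h, 6 of 59 members that passed the minimum were lower past the fold (background 20.6% of 1143 genes) and 1 was higher (background 17.1%). The median member stood at a log2 ratio of -0.11 and the median gene at -0.07. Besides Rps27l, described further on, Rps3, which lines the mRNA entry channel, went from 1253 to 959 CPM, and Rps15a from 199 to 155 CPM (log2 ratios -0.39 and -0.36). Pool means of Rps3 did not overlap between untreated and 2 h (1120 to 1487 and 928 to 994 CPM). Those of Rps15a at 2 h (65.6 to 261 CPM) lay inside the untreated range (34.2 to 362 CPM). Rpl5, which binds 5S rRNA, was higher, with 124 CPM untreated and 158 CPM at 2 h, a log2 ratio of 0.35 that was 0.17 when UMIs were summed over cells, as Rps15a was -0.17.

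At 8 h the wild-type members stood lower as a group. Of 57 that passed the minimum, 50 had a log2 ratio below 0, against 54.0% of the 954 genes tested, and the medians were -0.28 and -0.07. Past the fold, 22 of 57 were lower (38.6%, background 33.8%) and 2 were higher (3.51%, background 32.6%), so the members differed from the background mainly in how few were higher. Rps2, which lies near the mRNA entry site, had 809 CPM untreated, 707 at 2 h and 489 at 8 h (log2 ratio at 8 h -0.73). Rpl14 had 458.4, 387 and 297 CPM (-0.63), and Rps18, a protein of the small-subunit head, had 1164, 957 and 759 CPM (-0.62). Rps2 in the 8 wild-type untreated pools ranged from 618 to 1020 CPM and in the 8 pools at 8 h from 430 to 600 CPM, without overlap, while the pool ranges of Rpl14 overlapped (314 to 685 and 171 to 347 CPM). With the inducible genes left out of the total, 7 of the 57 were lower past the fold, against 24.6% of the 833 other genes. The medians were -0.07 for the members and 0.02 for those other genes.

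The 2 members past the fold upward in wild-type cells at 8 h were Rps27a and Rpl24. Rps27a encodes a fusion of ubiquitin to a small-subunit protein, and so supplies ubiquitin as well as ribosomes. Its level was 171, 208 and 259 CPM at 0, 2 and 8 h in wild-type cells and 150, 156 and 230 CPM in Rad21-/- cells, log2 ratios of 0.60 and 0.61 at 8 h. Its pool means overlapped between untreated and 8 h wild-type cells (70.6 to 214 and 158 to 505 CPM). Rpl24, which bridges the subunits, had 142, 150 and 210 CPM in wild-type cells (0.56 at 8 h). Its Rad21-/- levels were 169, 175 and 200 CPM (0.24), and this ratio is inside the fold.

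In Rad21-/- cells after 2 h of LPS the members hardly differed from the untreated sample. Of 62, 1 was lower past the fold (Rps27l, background 11.9% of 900 genes) and 4 were higher (background 12.7%), and the medians of members and genes were both -0.02. The highest ratios were those of Rpl5 (142 and 190 CPM, log2 ratio 0.42), Rpl10, which completes the large subunit late in its assembly (345 and 460.7 CPM, 0.42), and Rpl35a (486 and 617 CPM, 0.34, and 0.31 with summed UMIs). Rpl5 was the 1 member past the fold upward at 2 h in both genotypes, and Rps27l the 1 past it downward in both.

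At 8 h, 10 of 65 members were lower past the fold in Rad21-/- cells (15.4%, background 22.9% of 1189 genes) and 2 were higher (3.08%, background 27.6%). Of the 65, 48 had a log2 ratio below 0 against 51.4% of all genes, with medians of -0.17 and -0.01. Rps19, a protein needed to mature the small subunit and mutated in Diamond-Blackfan anaemia, had 1631, 1366 and 1110 CPM at 0, 2 and 8 h (-0.55 at 8 h). Its levels in wild-type cells were 1626, 1383 and 1143 CPM (-0.51), nearly the same at each time. Rps15 had 903, 818 and 633 CPM (-0.51), and Rps4x had 177, 148 and 130 CPM (-0.45, or -0.31 with summed UMIs). Pool means of Rps15 did not overlap between untreated and 8 h (800 to 1108 and 488 to 696 CPM). Those of Rps4x at 8 h (72.2 to 228 CPM) lay inside the untreated range (38.2 to 396 CPM). Rps3a3 was higher (149, 184 and 190 CPM, 0.35, or 0.3185 and so inside the fold of 0.3219 with summed UMIs), a row that may share its reads with Rps3a1. With the inducible genes left out of the total, 3 of 65 were lower past the fold, against 18.9% of 1115 other genes.

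Of 57 members that passed the minimum at 8 h in both genotypes, 9 were lower past the fold in both (Rpl8, Rpl13a, Rpl41, Rps2, Rps3, Rps4x, Rps15, Rps18 and Rps19). These are 9 of the 22 in wild-type and 9 of the 10 in Rad21-/- cells. Of all 848 genes so tested, 19.1% were lower in both. Rps27a alone among members was higher in both, against 23.0% of all genes. With the inducible genes left out of the total, Rps15 was the 1 member lower in both, and Rpl24 joined Rps27a as higher in both. Rpl8 lies near the centre where peptide bonds form, and Rpl13a is also known as a translational silencer outside the ribosome in monocytes treated with interferon. Rpl13a had 1515, 1304 and 1079 CPM in wild-type and 1829, 1695 and 1423 CPM in Rad21-/- cells.

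**Figure D4:**
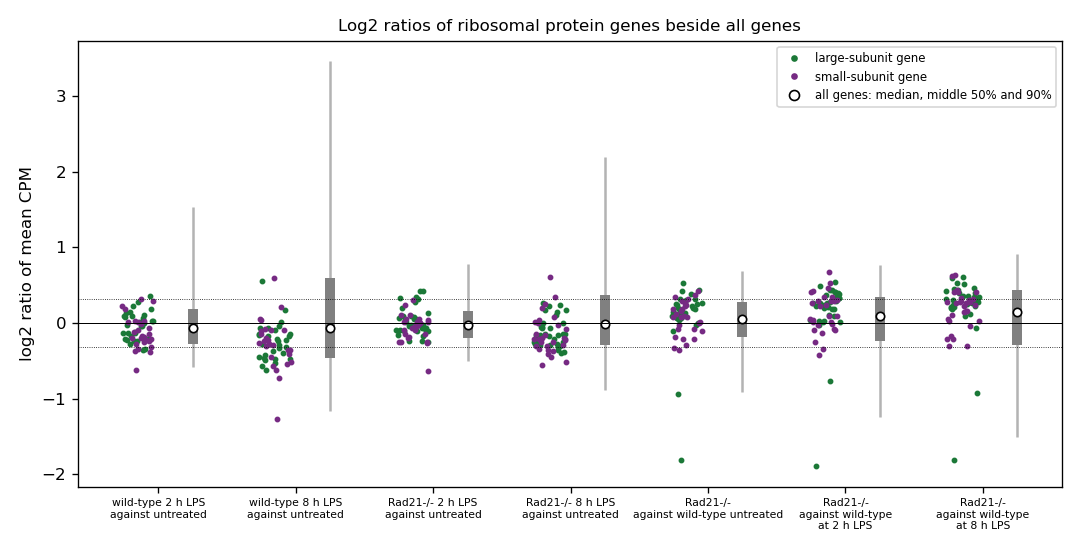
Log2 ratio of mean CPM (vertical axis) in the 7 comparisons, 1 point per member that passed the minimum, green for the large and purple for the small subunit; beside them the white circle, thick bar and thin line give the median, the middle 50% and the middle 90% of all genes tested, and dotted lines mark the fold (0.32 in size). Most members lie below 0 at 8 h of LPS and above 0 between genotypes, and the lowest points of the genotype comparisons are Rpl30 and Rpl29.

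Between genotypes, members were mostly higher in Rad21-/- cells, and so, to a lesser extent, were all genes tested. Of all genes, 42.48% had a log2 ratio below 0 untreated, 40.98% at 2 h and 40.11% at 8 h. Of the members, 15 of 59, 12 of 63 and 9 of 64 were below 0 at these times. Untreated, 44 of 59 had a log2 ratio above 0 (median 0.13, all genes 0.06), 7 were higher past the fold (background 19.9% of 878 genes) and 4 were lower (background 18.0%). At 2 h, 51 of 63 were above 0 (median 0.23, all genes 0.09), 19 were higher past the fold (30.2%, background 27.1% of 1142 genes) and 4 were lower (background 21.0%). At 8 h, 55 of 64 were above 0 (median 0.28, all genes 0.15), 23 were higher past the fold (35.9%, background 34.8% of 1239 genes) and 2 were lower (background 23.9%). The counts of higher members thus lay near or below the background, while their median lay further above 0, and at 8 h their middle 50% ran from 0.15 to 0.37 against -0.29 to 0.43 for all genes. With the inducible genes left out of the total, the higher counts were 7, 12 and 8. The shares of other genes so called were 18.7% of 857, 22.7% of 1043 and 26.4% of 1080. At 8 h the 4 highest ratios included Rps27l, Rps3a3, Rpl5 and Rpl14, which had 297 CPM in wild-type and 449.4 CPM in Rad21-/- cells.

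Of 59 members that passed the minimum at all 3 times, 4 were higher past the fold in Rad21-/- cells each time, Rpl12, Rpl35, Rps28 and Rps3a1, against 13.4% of the 763 genes so tested. With the inducible genes left out of the total none of the 4 was past the fold at 8 h (log2 ratios 0.28 for Rpl12 and Rps3a1, 0.30 for Rpl35 and 0.31 for Rps28), and 0 members were higher at all 3 times. Rpl12, at the base of the factor-binding stalk, had 154, 141 and 137 CPM in wild-type and 209, 205 and 181 CPM in Rad21-/- cells (log2 ratios 0.44, 0.54 and 0.40). Rpl35, close to the exit of the peptide tunnel, had 397, 396 and 358 CPM against 533, 497 and 480 CPM (0.43, 0.33 and 0.42). Rps28, near the mRNA exit, had 728, 695 and 591 CPM against 924, 955 and 797 CPM (0.34, 0.46 and 0.43). Rad21-/- cells were higher in 16 of 18 pools for Rpl12 and Rps28 and in 17 of 18 for Rpl35. This was not particular to them, as the members' whole share was higher in 16 of 18. Rplp1, Rps9 and Rpl41, among others, were lower in 1 of 18. The largest ratio at its time was that of Rpl31 untreated (222 and 321 CPM, 0.53) and that of Rps3a3 at 2 h (115 and 184 CPM, 0.67). Rps13 at 2 h had 91.0 and 131 CPM (0.53), but -0.19 with UMIs summed over cells, where deep wells weigh most, and 0.56 without those wells.

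Rpl30 and Rpl29 went the other way. Rpl30 (chr15:34440505-34443276) encodes a large-subunit protein at the face between the subunits that also binds its own transcript. It had 530, 644 and 508 CPM in wild-type cells at 0, 2 and 8 h and 151, 173 and 145 CPM in Rad21-/- cells. Every wild-type value was above every Rad21-/- value, and both genotypes stayed inside the fold with LPS. The log2 ratios were -1.81, -1.89 and -1.81. Summed over cells, untreated wild-type cells had 773 UMIs (525.7 CPM, 95% exact Poisson interval 489 to 564) and Rad21-/- cells 284 UMIs (156 CPM, 138 to 175), intervals that cover counting error only. Rad21-/- cells were lower in 18 of 18 pools. The pool means ran from 312 to 890 CPM in wild-type and from 64.1 to 267 CPM in Rad21-/- cells over all times, without overlap. A UMI of Rpl30 was found in 89.1% of untreated wild-type cells (95% exact binomial interval 84.5 to 92.8) and in 55.2% of untreated Rad21-/- cells (49.0 to 61.2), or 83.9% and 39.5% after thinning to 3800 UMIs, which kept 192 and 223 cells and left out 47 shallower cells of each.

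The 9 pseudogene rows of Rpl30 did not share this difference. Together they had 204, 256 and 239 CPM in wild-type and 217, 282 and 223 CPM in Rad21-/- cells. Within them, Rpl30-ps11 had 53.3, 73.3 and 63.7 CPM in wild-type and 84.6, 122 and 82.6 CPM in Rad21-/- cells, and Rpl30-ps1 had 46.9, 57.8 and 53.4 against 39.8, 51.6 and 44.2 CPM. Gene and pseudogene rows added together gave log2 ratios of -0.99, -0.98 and -1.02. Whether reads of the gene were assigned differently in the cultures was not tested. Rpl30 lies on the same chromosome as Rad21 (chr15:51962604-51993538). The other members on chromosome 15, Rpl8, Rpl37 and Rpl3, had log2 ratios in untreated cells of 0.07, 0.31 and 0.19.

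Rpl29 (chr9:106428889-106431568), a large-subunit protein that mice can live without, had 343, 292 and 304 CPM in wild-type and 179, 171 and 161 CPM in Rad21-/- cells, log2 ratios of -0.94, -0.77 and -0.92. The sample means of the genotypes did not overlap, and Rad21-/- cells were lower in 18 of 18 pools. Its 2 pseudogene rows held 71 UMIs in all cells together, and adding them left log2 ratios of -0.92, -0.73 and -0.90. Rpl29 and Rpl30 were the 2 members lower past the fold at all 3 times, against 8.52% of the 763 genes, and no other member was lower in all 18 pools. Without them the log2 ratio of the whole share was 0.14 untreated, 0.21 at 2 h and 0.23 at 8 h.

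**Figure D5:**
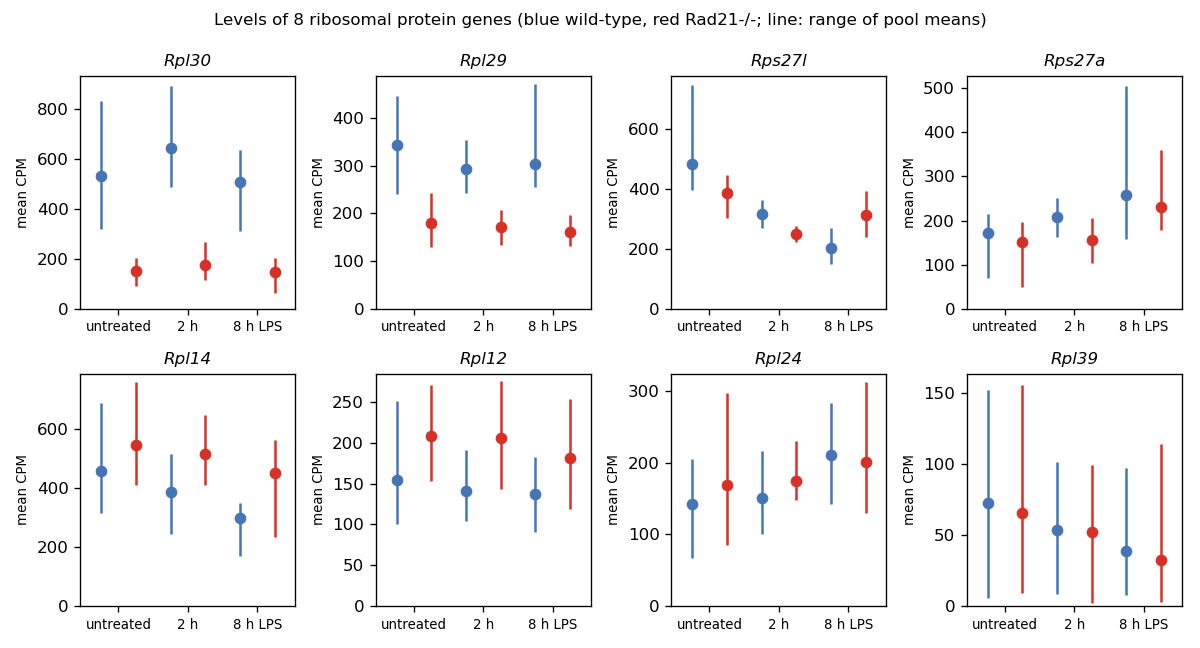
Mean CPM (vertical axes, from 0) of Rpl30, Rpl29, Rps27l, Rps27a, Rpl14, Rpl12, Rpl24 and Rpl39 untreated and after 2 h and 8 h of LPS, wild-type in blue and Rad21-/- in red; points are means over cells and lines span the means of library pools of at least 10 cells. For Rpl30 the red lines lie wholly below the blue ones, and for Rps27l blue lies above red until 8 h, where the order is the opposite.

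Among paralogs of ribosomal protein genes, Rps27l alone passed the minimum. It encodes a close relative of Rps27 that p53 can induce. It had 485, 316 and 202 CPM at 0, 2 and 8 h in wild-type cells, log2 ratios of -0.62 and -1.26, the lowest of any member tested at either time. In Rad21-/- cells it had 387, 248 and 314 CPM, log2 ratios of -0.64 and -0.30, so that the level at 8 h lay above that at 2 h. Pool means in wild-type cells were 396 to 748 CPM untreated and 151 to 269 CPM at 8 h, without overlap, and in Rad21-/- cells 304 to 446.5 and 240 to 394 CPM, with overlap. The log2 ratio of Rad21-/- to wild-type was -0.33 untreated (-0.24 with summed UMIs, inside the fold), -0.35 at 2 h and 0.64 at 8 h. By pool, Rad21-/- was the lower genotype in 6 of 8 before LPS, in 3 of 4 at 2 h and in 0 of 6 at 8 h. Rps27 itself had between 22.0 and 30.7 CPM in the 6 samples, on 267 UMIs.

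The other paralogs were counted too rarely to pass the minimum in any comparison. Rpl22l1, a paralog of Rpl22 with a role in haematopoiesis, had 96.5, 88.2 and 67.7 CPM in wild-type and 81.5, 76.6 and 41.5 CPM in Rad21-/- cells, on 718 UMIs in all. Rpl22 had 690, 631 and 498 CPM in wild-type and 757, 644 and 637 CPM in Rad21-/- cells. Rpl39, which lines the peptide exit tunnel, had 72.7, 54.0 and 38.5 CPM in wild-type and 65.5, 52.3 and 32.7 CPM in Rad21-/- cells, so both genotypes were lower at each later time, and Rpl39l had 21 UMIs. Rpl7l1, which acts in the assembly of the large subunit, had 45.2, 49.6 and 33.8 CPM in wild-type and 41.7, 61.3 and 50.8 CPM in Rad21-/- cells, beside 308 to 377 CPM for Rpl7. Rpl10l had 46 UMIs, beside 285 to 460.7 CPM for Rpl10. Rps4l had 1 UMI in 239 untreated wild-type cells and 14 UMIs in 13 of 270 untreated Rad21-/- cells, a ratio of 11.3 with an exact counting interval of 1.72 to 477.9. At 2 h the order was the opposite, with 15 UMIs in wild-type and 6 in Rad21-/- cells (0.620, 0.197 to 1.69), and at 8 h there were 9 and 15 UMIs (1.46, 0.600 to 3.79). Its partner Rps4x had 206, 176 and 160 CPM in wild-type and 177, 148 and 130 CPM in Rad21-/- cells. Rpl3 had between 89.4 and 151 CPM, and Rpl3l was not among the rows.

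Of the stalk proteins, which form the arm that activates elongation factors, Rplp1 had 2317, 1920 and 1723 CPM in wild-type and 2698, 2588 and 2199 CPM in Rad21-/- cells. The log2 ratio at 8 h was -0.43 in wild-type and -0.29 in Rad21-/- cells, and between genotypes 0.22, 0.43 and 0.35. Rplp2 had 1272, 1236 and 1047 CPM against 1388, 1452 and 1209 CPM, and Rplp0, the base of the stalk, had 964, 1063 and 744 CPM against 1010, 1075 and 915 CPM. Rplp0 was thus at its highest at 2 h in both genotypes, with log2 ratios of 0.14 and 0.09 that are inside the fold. Rpsa, a small-subunit protein also known as a laminin receptor, had 113, 73.8 and 65.2 CPM in wild-type and 89.2, 86.2 and 67.9 CPM in Rad21-/- cells on 934 UMIs, with a further 4578 UMIs on 9 pseudogene rows.

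Across the 6 samples the members varied less than other genes. Of the 78 members with at least 500 UMIs in all cells together, the median ratio of the highest to the lowest sample was 1.47, against 1.82 over the 4057 genes with as many UMIs. Among genes above 500 CPM it was 1.44 for 33 members and 1.74 for 221 genes, members included. The ratio was above 2 for 5 members, Rpl30 (4.43), Rps27l (2.40), Rpl22l1 (2.33), Rpl39 (2.22) and Rpl29 (2.13). The highest sample was Rad21-/- untreated for 28 of the 78 and Rad21-/- at 2 h for 24, and the lowest was wild-type at 8 h for 49. Inducible genes took 15.1% of UMIs in wild-type cells at 8 h. The same counts over all genes are not given, so these are not shown to be particular to the members.

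The balance of the subunits was measured cell by cell. The mean over cells of the log2 ratio of large- to small-subunit UMIs was 0.20, 0.26 and 0.16 in wild-type cells at 0, 2 and 8 h and 0.26, 0.29 and 0.27 in Rad21-/- cells. Rad21-/- exceeded wild-type by 0.065 untreated, 0.035 at 2 h and 0.11 at 8 h. With summed UMIs these were 0.045, 0.050 and 0.087. Approximate counting intervals for summed UMIs were about 0.030 to either side. Intervals for means over cells, which weigh shallow cells equally, were not computed. The differences with LPS ran from -0.035 to 0.060. That of Rad21-/- cells at 8 h (0.0059) alone was smaller than its interval for summed UMIs. Those of wild-type cells at 8 h (-0.035, interval 0.031) and Rad21-/- cells at 2 h (0.030, interval 0.030) were close to theirs.

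Cells of a sample differed more than counting allows. The SD over cells of the share was between 0.759 and 1.11 percentage points in the 6 samples, 2.80 to 3.76 times the SD that sampling of UMIs would give. The shares of the large and the small subunit moved together across the cells of a sample, with Pearson's r from 0.73 to 0.84, and both are taken from the total of the same cell. The SD and r span all pools of a sample, whose means ran from 3.90% to 5.14% in wild-type untreated cells. Differences between pools were not separated from differences between cells. The members' share was weakly related to the logarithm of depth (r from -0.20 to 0.089). It was lower in cells with a larger share of transcripts encoded in mitochondria (r from -0.19 to -0.54). The mitochondrial share averaged 5.05% to 7.28% and was highest in untreated Rad21-/- cells, where the members' share was also highest; its part in the results was not tested beyond the alternative that leaves it out of the total.

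Related genes gave a reference. Among ribosomal protein genes that the name rule does not reach, Gnb2l1 (Rack1, a scaffold on the small subunit) had 1233, 1107 and 1003 CPM in wild-type and 1294, 1139 and 1113 CPM in Rad21-/- cells. Rpl36al had 453.7, 398 and 363 CPM against 442.5, 349 and 413 CPM. Fau, which is made as a fusion to a ubiquitin-like protein, had a log2 ratio of -0.15 in wild-type cells at 8 h.

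Elongation factors and other mRNAs known to carry the TOP tract were set beside the members. Of 18 listed, 9 passed the minimum in wild-type cells at 8 h, 6 of them were lower past the fold (background 33.8%) and 0 higher, and the median log2 ratio was -0.44 (members -0.28, all genes -0.07). For Rad21-/- cells 4 of 11 were lower (background 22.9%) and 0 higher, with a median of -0.07. Between genotypes, 0 of 10 were higher (background 19.9%) and 0 lower (background 18.0%) untreated, with a median of 0.19. At 2 h 5 of 11 were higher (background 27.1%) and 1 lower (background 21.0%), with a median of 0.23. At 8 h 7 of 10 were higher (background 34.8%) and 0 lower, with a median of 0.44. Values with the inducible genes left out are not given for this list. Eef2, which moves the ribosome along the mRNA, had 488, 403 and 286 CPM in wild-type and 602, 599 and 470 CPM in Rad21-/- cells. Npm1, a nucleolar chaperone of ribosome assembly, had 299, 249 and 186 CPM against 259, 192 and 152 CPM. Tpt1 and Pabpc1 had the highest ratios of the list at 8 h in wild-type cells, 0.23 and 0.14.

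Initiation factors were mostly too rare to be compared. In wild-type cells at 8 h 5 of 24 passed the minimum, of which 2 were higher past the fold (background 32.6%) and 0 lower, with 2 below 0 (median 0.23). In Rad21-/- cells 6 of 9 were higher (background 27.6%) and 0 lower (median 0.61). Eif4g2, a scaffold for cap-independent initiation, had 232, 201 and 461.7 CPM in wild-type and 169, 149 and 306 CPM in Rad21-/- cells, and Eif1ax had 127, 160 and 177 against 87.5, 102 and 172 CPM. Eif5a and Eif4a1, the RNA helicase of initiation, had the list's lowest ratios in wild-type cells at 8 h (-0.21 and -0.13), while in Rad21-/- cells theirs were 0.74 and 0.82. Of 14 genes listed around mTOR that were in the matrix, only Larp1 passed the minimum, in the 8 h comparisons, with 100, 93.2 and 190 CPM in wild-type and 68.3, 109 and 157 CPM in Rad21-/- cells. Ncl, a nucleolar protein that acts on rRNA precursors, was the 1 ribosome assembly gene of 40 to pass in wild-type cells at 8 h, with 271, 234 and 184 CPM against 254, 228 and 234 CPM. Of 77 genes of the mitochondrial ribosome, 2 passed there, Mrpl52 with 140, 131 and 327 CPM in wild-type and 126, 141 and 312 CPM in Rad21-/- cells, and Mrps28 with 218, 238 and 158 against 152, 153 and 140 CPM. As a summed share, the mitochondrial ribosome took 0.441%, 0.344% and 0.289% of wild-type UMIs and 0.397%, 0.319% and 0.388% of Rad21-/- UMIs, so its level at 8 h lay below 2 h in wild-type and above 2 h in Rad21-/- cells.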

How the data were processed

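Single macrophages were sorted into plates and prepared by MARS-seq, a 3′ method with UMIs. Per the methods and labels, the authors mapped reads with GEMTools to GRCm38.p4 and Gencode genes, kept unambiguous reads, collapsed UMIs and deposited a table of raw UMI counts, with genes as rows and cells as columns. Every cell was assigned to a sample and pool from its name. From the counts, shares and CPM were computed per cell and averaged with equal weight per cell, with scipy 1.17.1, pandas 2.3.3, matplotlib 3.10.9 and numpy 2.4.6 under Python 3.11.15. Intervals are exact, at 95%, and cover counting error only, except that those of the subunit balance are approximate and use summed UMIs. With 1 sample per group there was no test. The members follow from the name rule alone. The gene lists and the rules for naming genes were set with earlier results of these data known. Genes named are, per comparison, the 3 highest and 3 lowest log2 ratios among members with 500 UMIs, the 5 highest and 5 lowest members by level, the paralogs with their partners, Rplp0 to Rplp2, Rpsa, Rps27a and, of each list, the 2 highest and 2 lowest at 8 h in wild-type cells. Other members named were chosen after their values were seen: Rps18, Rps28, Rps3a1, Rpl31, Rpl8, Rpl37 and those listed as lower in both genotypes. Sequences and positions are from RefSeq, GRCm38.p6, a later patch of the authors' build. The log2 ratios and the fold rule were tested on counts simulated for the wild-type 8 h comparison. Alternatives are described in the closing section.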

Additional observations from a re-analysis of the deposited data

Results flagged for a closer look

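The genotype ratio of Rps27l had opposite signs at different times. The log2 ratio of Rad21-/- to wild-type mean CPM was -0.33 untreated and -0.35 at 2 h but 0.64 at 8 h, each past the fold of 0.32. With 1 sample per group the difference between times was not tested. Rows of ribosomal protein pseudogenes, which no comparison used as members, held 1.48%, 1.39% and 1.27% of the UMIs of wild-type cells untreated and after 2 h and 8 h, and 1.63%, 1.64% and 1.51% of those of Rad21-/- cells. In all, these rows held 162634 UMIs, 36.4% of the number on the 85 genes.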

How the results depend on the processing

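Log2 ratios of the members' share are given in the order wild-type 2 h and 8 h, Rad21-/- 2 h and 8 h against untreated, then Rad21-/- against wild-type untreated, at 2 h and at 8 h, where they differed from the reported -0.11, -0.30, -0.05, -0.22, 0.12, 0.19 and 0.21 by more than counting error. Of 164 share values under all alternatives, 158 had the reported direction. Many of the 164 leave out 1 pool at a time and so share most of their data, and this count is no measure of robustness. Summed UMIs gave -0.22, -0.27, -0.076 and -0.26 for the LPS comparisons and 0.28 and 0.14 at 2 h and 8 h between genotypes. Medians over cells gave -0.084 (wild-type 2 h), -0.0068 (Rad21-/- 2 h), 0.14 (genotype, untreated) and 0.21 (2 h). With UMIs outside the inducible genes as the total, the ratios were -0.011, -0.10, 0.010 and -0.12 with LPS and 0.13 and 0.088 between genotypes at 2 h and 8 h, so the Rad21-/- 2 h ratio turned. Outside mitochondrially encoded transcripts they were -0.14, -0.33, -0.070 and -0.25 with LPS. UMIs per cell without scaling gave 0.72, -0.055, 0.10, 0.21, 0.27, -0.35 and 0.53, so that 4 of 7 turned; 5 deep wells hold 45.5% of the UMIs of the wild-type 2 h sample. Thinning gave -0.079, -0.29, 0.14 (genotype, untreated) and 0.17 (2 h). Equal weight per pool gave -0.15, -0.36, -0.065 and -0.24 with LPS and 0.10 between untreated genotypes. Pseudogene rows added gave -0.28 and -0.19 at 8 h in wild-type and Rad21-/- cells. Without Rpl29 and Rpl30, chosen after seeing the data, the genotype ratios were 0.14, 0.21 and 0.23.

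Leaving out each pool in turn gave -0.18 to -0.081, -0.35 to -0.28, -0.10 to 0.0034 and -0.27 to -0.16 with LPS and 0.10 to 0.14, 0.15 to 0.20 and 0.17 to 0.24 between genotypes, so the Rad21-/- 2 h ratio is not separable from 0. Members past the fold in wild-type cells at 2 h were 1 higher and 6 lower. They became 0 and 13 with summed UMIs, and 5 and 11 with no minimum but 1 UMI in each sample. Outside the inducible genes, an alternative added after seeing the data, they became 6 and 1 (17.8% and 12.4% of other genes). For summed UMIs and for no minimum the share over all genes is not given. At 8 h in wild-type cells the higher count was 5 with no minimum. Outside the inducible genes 4 were higher and 7 lower (32.1% and 24.6% of other genes). In Rad21-/- cells at 2 h the counts were 2 and 2 summed, and 8 and 5 with no minimum. Outside the inducible genes 7 were higher (13.2% of other genes). At 8 h 19 were lower summed and 18 with no minimum. Outside the inducible genes 5 were higher and 3 lower (29.3% and 18.9% of other genes). Between genotypes, 15 were higher untreated with no minimum, and 12 were higher at 2 h outside the inducible genes (22.7% of other genes). At 8 h 14 were higher summed and 4 lower with no minimum. Outside the inducible genes 8 were higher and 6 lower at 8 h (26.4% and 21.1% of other genes). Rps13 at 2 h between genotypes turned from 0.53 to -0.19 with summed UMIs. The causes were not tested. Of 434 values for named genes under 2 alternatives, 405 stayed within counting error. The large to small subunit differences stayed within counting error in 14 of 14. No paired analysis was possible because each group is 1 sample.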

Other observations

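Rpl37rt, a retrotransposed copy of Rpl37 that the name rule does not reach, held 9353 UMIs, more than the 4886 of Rpl37 itself. Its levels were 856, 873 and 722 CPM in wild-type cells at 0, 2 and 8 h and 999, 1021 and 849 CPM in Rad21-/- cells, against 380 to 547 CPM in the 6 samples for Rpl37. The genotype log2 ratios of the copy were 0.22, 0.23 and 0.23, and those of the gene 0.31, 0.41 and 0.25. Rps27rt held 222 UMIs beside 267 for Rps27. A median cell showed 57 to 63 of the 85 members, and 50 to 54 in the 154 to 228 cells per sample that could be thinned to 3800 UMIs.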
